A study of Mus musculus with 4 samples.

Results

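The genes described here are the 5 subunits of the transcription factor NF-kB (Nfkb1, Nfkb2, Rel, Rela and Relb) and 5 genes that restrain or modulate it (Nfkbia, Nfkbib, Nfkbie, Tnfaip3 and Bcl3). They were chosen by symbol, and all 10 were found among the 22672 named genes of the deposited table. Their transcripts were counted in 4 RNA sequencing libraries of splenic T cells from Pmel mice, whose transgenic T cell receptor recognises a peptide of the pigment cell protein gp100. All cells had been stimulated for 72 h with the cognate peptide at 1 µg/ml and with interleukin-2 at 100 U/ml. The control group held 2 libraries of the wild-type genotype, and the other group held 2 libraries labelled SphK1 -/-, for the loss of sphingosine kinase 1, an enzyme that makes sphingosine-1-phosphate. No unstimulated cells were analysed here, so the values describe activated cells alone. Whether replicate libraries stem from different mice is not stated in the labels. The p-values below therefore cover the variation among these 4 samples and nothing wider, and that variation may be technical.

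NF-kB proteins bind DNA as dimers of the 5 subunits. In resting cells the IkB proteins hold most of these dimers in the cytoplasm. Signals from the T cell receptor activate the IkB kinases, IkB is degraded, and dimers such as p50 with RelA or with c-Rel enter the nucleus. A slower, non-canonical route processes the p100 product of Nfkb2 and releases RelB. Several of the inhibitors are themselves induced by NF-kB, which closes negative feedback loops.

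The members' own promoters were searched for the motif that NF-kB binds. RefSeq promoter windows (GRCm38.p6, 250 bases before to 50 bases after an annotated start) were at hand for 8 of the 10 members, all but Nfkb1 and Relb. The kB consensus motif, the 10-base sequence preferred by NF-kB dimers, was searched on both strands. It was present in a window of 6 of these 8 genes, against 5.14% of the 27025 genes with a window. Counted by window, 4.51% of all 32851 windows held it. A match describes letters and does not show that a factor binds there. The stretches below are shown because these members have a consensus match near a start. They are written 5′ to 3′ along the gene's strand, with the matched bases in capitals.
Nfkb2, chr19:46304678-46304727, plus strand: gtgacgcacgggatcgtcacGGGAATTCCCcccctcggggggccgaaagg
Rel, chr11:23771032-23771081, minus strand: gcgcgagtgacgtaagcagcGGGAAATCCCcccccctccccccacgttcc
Nfkbia, chr12:55492648-55492696, minus strand: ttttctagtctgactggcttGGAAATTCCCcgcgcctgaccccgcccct
Nfkbie, chr17:45555574-45555623, plus strand: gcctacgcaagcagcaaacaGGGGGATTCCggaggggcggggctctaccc
Tnfaip3, chr10:19015411-19015442, minus strand: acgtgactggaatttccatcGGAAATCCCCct
Bcl3, chr7:19822744-19822753, minus strand: GGGAAGTCCC
In Nfkb2 and Rel these bases match the consensus on both strands, and they begin 39 and 92 bases before the start. Nfkb2 held a match in each of its 3 windows, of which the first is shown. In Nfkbia, Nfkbie and Tnfaip3 it begins 29, 106 and 12 bases before the start, and in Bcl3 it lies just after it. Rela and Nfkbib had no consensus match in their windows.

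Library totals ranged from 44277592 to 53640611 counts. Sphk1 itself, the targeted gene, ran against the labels, with 2 and 4 reads under the control label and 35 and 18 under the label SphK1 -/-, so the latter libraries are named by their label throughout. Over the table, 861 of 12758 tested genes, or 6.75%, differed at an adjusted p under 0.05 in edgeR's quasi-likelihood test, 765 higher and 96 lower in the libraries labelled SphK1 -/- (825 and 230 without control 2). Among the 9073 of them with little sequence shared with, or overlapped by, other genes, 132 were higher and 44 lower. A further 720 entries without a name had no value in either library labelled SphK1 -/-, and whether the groups share 1 annotation is not given in the sources used here. With library totals alone as the scaling, 652 were higher and 1432 lower, and the median over all genes shifted to -0.261 on the log2 scale. Levels are given as CPM, the counts relative to TMM-adjusted library sizes. The 10 T cell markers measured summed to 4910 CPM in the lowest and 5410 CPM in the highest library, so the labelled cell type was well represented. Cd3d, Cd3e, Cd3g, Cd247, Cd8b1, Lck and Zap70 among them were lower in both libraries labelled SphK1 -/- than in both controls, with no call. Such a separation held for 23.8% of all tested genes. Cd8a, Cd2 and Thy1 overlapped between groups. B cell markers were present too, at 184 and 193 CPM in the control libraries and at 390 and 184 CPM in libraries 1 and 2 labelled SphK1 -/-.

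No subunit and no inhibitor passed the threshold. In edgeR 0 of the 10 members had an adjusted p under 0.05, beside 6.75% of all tested genes, and 3 had an unadjusted p under 0.05 (Rel, Nfkbie and Bcl3), beside 14.9% of all tested genes. In a fit of the 9095 single-copy genes, which share little sequence with other genes, 0 of 8 members and 0.781% of all genes were called. Limma-voom called 0 members, beside 834 of the 12758 tested genes. The DESeq2 Wald test called 2, Nfkbie and Bcl3, both higher in the libraries labelled SphK1 -/-. Over the table that test called 1042 of the 12758 genes, 899 higher and 143 lower. The median log2 fold change of the members was 0.105, where that of all tested genes was -0.021. Members' differences ran from -0.19 for Tnfaip3 to 0.83 for Bcl3. All 10 members passed the filter on low counts, with at least 1044 reads in every library.

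**Figure D1:**
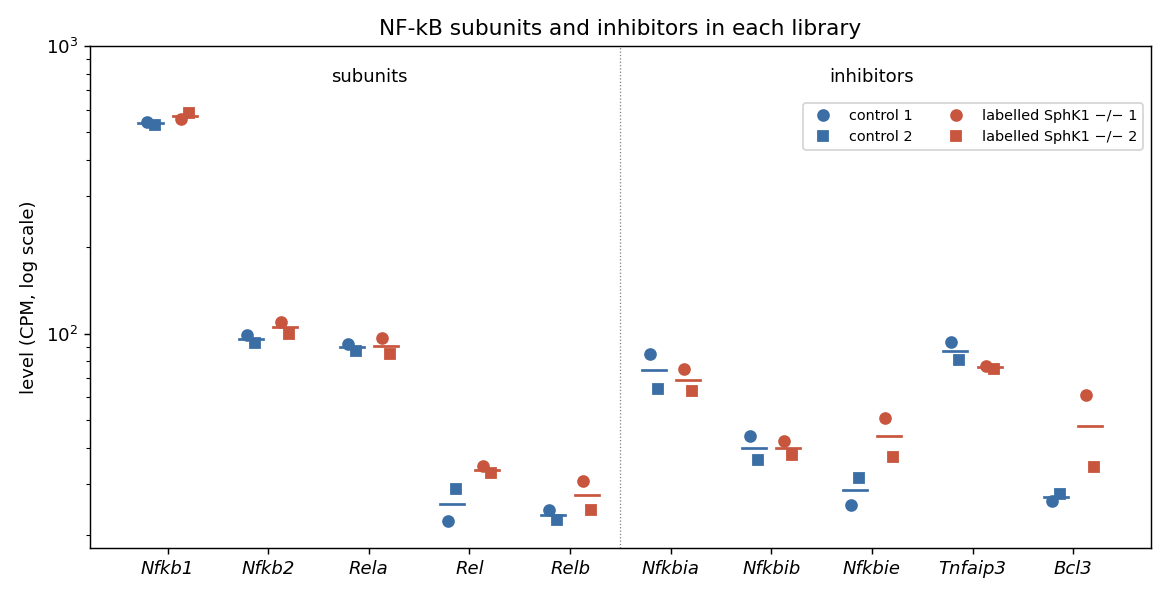
Level of each member in each library, in CPM on a log axis. Circles are replicate 1 and squares replicate 2 of each group, and bars are group means. Nfkb1 lies above all others at 529 to 583 CPM, and Bcl3 and Nfkbie show the widest gap between the libraries labelled SphK1 -/-.

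Transcript levels per length placed Nfkb1 first. Reads were divided by the length of the longest protein-coding transcript of each gene in GENCODE M21. In the control libraries Nfkb1 then stood at 131 ± 2.94 CPM per kilobase (SD, n = 2). Nfkbia followed at 47.3 ± 9.38, Rela at 32.9 ± 1.23 and Nfkb2 at 24.9 ± 1.21 CPM per kilobase (SD, n = 2 each). Tnfaip3 at 19.7 ± 2.08 and Nfkbib at 19.5 ± 2.57 could not be ordered, since their libraries overlapped, and the same held for Nfkbie at 11.7 ± 1.79 and Relb at 10.6 ± 0.566 CPM per kilobase. Bcl3 lay between these pairs at 14.6 ± 0.557, and Rel was lowest at 3.41 ± 0.617 CPM per kilobase (SD, n = 2 each). In the libraries labelled SphK1 -/- the first 4 and the last 2 places were the same, while Bcl3, at 25.8 ± 10.3 CPM per kilobase, moved from the seventh to the fifth place with a range that met those of Rela, Nfkb2, Nfkbib and Nfkbie. These places depended on the length used. Over the union of its annotated exons, 12061 bases rather than 4117, the control level of Nfkb1 was 44.6 CPM per kilobase and overlapped that of Nfkbia at 46.4. On that scale Tnfaip3 at 12.1 lay below Nfkbib at 18.5, and Relb at 6.02 lay below Nfkbie at 9.34 CPM per kilobase, with no overlap in either pair.

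Nfkb1 and Rela, which encode the subunits of the p50 and RelA dimer, had log2 fold changes near 0. Nfkb1 encodes p105, the precursor of p50, and lies on chromosome 3 from 135584655 to 135691547 (GRCm38, minus strand). It was at 546 and 529 CPM in the control libraries and at 557 and 583 CPM in the libraries labelled SphK1 -/-. The groups did not overlap, but the log2 fold change was 0.08 ± 0.12 (SE; 95% interval -0.19 to 0.35; adjusted p = 0.814 in edgeR). Rela encodes the transactivating subunit p65, on chromosome 19 from 5637483 to 5648130. It was at 91.9 and 87.1 CPM in the control libraries and at 96.3 and 84.7 CPM in those labelled SphK1 -/-, so the libraries labelled SphK1 -/- enclosed the controls. Its log2 fold change was 0.02 ± 0.11 (SE; 95% interval -0.25 to 0.28; adjusted p = 0.967 in edgeR). Differences within these intervals, which are not adjusted for the number of genes, could not be told apart from 0.

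Rel was the subunit with the largest fitted difference. It encodes c-Rel, a subunit prominent in lymphocytes that drives cytokine genes, and lies on chromosome 11 from 23736847 to 23770970 on the minus strand. Control libraries 1 and 2 had 22.2 and 28.7 CPM, and those labelled SphK1 -/- had 34.6 and 32.6 CPM. Both libraries labelled SphK1 -/- lay above both controls, and the controls differed more from each other than the other pair did. The log2 fold change was 0.40 ± 0.16 (SE; 95% interval 0.04 to 0.75), with an adjusted p of 0.26 in edgeR. Without control 2 it was 0.60 (adjusted p = 0.0427), and without control 1 it was 0.26 (adjusted p = 0.575), so its size depended on which control was kept.

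The subunits of the non-canonical route did not pass the test either. Nfkb2, whose p100 product is both an inhibitor and the precursor of p52, was at 99.1 and 92.5 CPM in the control libraries and at 110 and 99.4 CPM in the libraries labelled SphK1 -/-. The groups were separated by less than 1 CPM, with a log2 fold change of 0.13 ± 0.11 (SE; adjusted p = 0.686 in edgeR). Relb, the partner of p52, was at 24.3 and 22.5 CPM in the control libraries. It was at 30.8 and 24.3 CPM in the libraries labelled SphK1 -/-, where library 2 matched control 1 to the digits given. Its log2 fold change was 0.23 ± 0.16 (SE; adjusted p = 0.573). Other genes, Psd among them, cover 18.1% of the exons of Nfkb2, and the sources used here do not give the strand setting of the counting, so some reads of Nfkb2 may belong to its neighbours.

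Nfkbia, Nfkbib and Tnfaip3 did not pass the test. Nfkbia encodes IkB-alpha, the inhibitor that is degraded and resynthesised fastest after a signal, on chromosome 12 from 55489410 to 55492647. It was at 85.1 and 64.2 CPM in the control libraries and at 75.0 and 63.1 CPM in the libraries labelled SphK1 -/-. The groups overlapped, and the log2 fold change was -0.11 ± 0.16 (SE; 95% interval -0.47 to 0.25; adjusted p = 0.812 in edgeR). Nfkbib, which encodes the slower inhibitor IkB-beta, was at 43.9 and 36.4 CPM in the control libraries and at 42.3 and 37.8 CPM in the others, a ratio of 0.998 (adjusted p = 0.994). Sirt2 and Ccer2 cover 16.4% of the exons of Nfkbib, so its counts carry the same limit as those of Nfkb2. Tnfaip3 encodes A20, a ubiquitin-editing enzyme that ends signalling towards NF-kB. It was at 93.6 and 80.6 CPM in the control libraries and at 77.3 and 75.1 CPM in those labelled SphK1 -/-, the 1 member whose values were all lower there. Its log2 fold change was -0.19 ± 0.12 (SE; adjusted p = 0.53), and with library totals alone it was -0.43 (adjusted p = 0.0421), where the median of all genes was itself at -0.261.

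Nfkbie and Bcl3 had the largest fitted differences among the members and missed the threshold. Nfkbie encodes IkB-epsilon, an inhibitor that acts on c-Rel and RelA dimers, and lies on chromosome 17 from 45555703 to 45563169. It was at 25.4 and 31.5 CPM in the control libraries and at 50.7 and 37.3 CPM in libraries 1 and 2 labelled SphK1 -/-. Both of the latter lay above both controls, and library 1 was the highest. The log2 fold change was 0.63 ± 0.18 (SE; 95% interval 0.22 to 1.03; adjusted p = 0.0899 in edgeR). Bcl3 encodes an atypical, nuclear IkB protein that works with p50 and p52 homodimers, on chromosome 7 from 19808462 to 19822770. It was at 26.2 and 27.7 CPM in the control libraries and at 61.3 and 34.3 CPM in libraries 1 and 2 labelled SphK1 -/-. The 2 controls were close together, while the libraries labelled SphK1 -/- lay far apart. The log2 fold change was 0.83 ± 0.24 (SE; 95% interval 0.28 to 1.37; adjusted p = 0.0971 in edgeR).

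These differences were larger in library 1 labelled SphK1 -/- than in library 2. Without it the log2 fold changes were 0.39 for Nfkbie (adjusted p = 0.622) and 0.35 for Bcl3 (adjusted p = 0.728). Without library 2 they were 0.83 (adjusted p = 0.013) and 1.18 (adjusted p = 0.000253). The DESeq2 Wald test gave adjusted p values of 0.0185 for Nfkbie and 0.0104 for Bcl3. Genes listed as markers of other cell types also differed between libraries. B cell markers, of which 7 were measured and none was at 0, summed to 2.07 times the control mean in library 1 and to 0.976 times in library 2. Among them Cd79a, a chain of the B cell receptor, rose (log2 fold change 1.48, adjusted p = 0.0236). Dendritic cell and MHC class II markers summed to 713 and 332 CPM in libraries 1 and 2, against 504 and 420 CPM in the controls. Cd74, H2-Aa and H2-Ab1 made up most of this sum, while Flt3, a receptor of dendritic cells, rose from 0.298 and 0.419 CPM to 1.77 and 1.01 CPM (adjusted p = 0.0332 in edgeR). Itgax and Zbtb46 were also above both controls in both libraries labelled SphK1 -/-, with no call. Xcr1, Cd74, H2-Aa and H2-Ab1 overlapped between groups. Siglech, the lowest of these markers and not tested, was lower there, at 0.0425 and 0.0206 CPM against 0.106 and 0.199 CPM. Macrophage markers summed to 29.9 and 18.2 CPM, against 11.2 and 14.5 CPM. Most of this sum was Cd68, which rose (log2 fold change 1.08, adjusted p = 0.0478 in edgeR). Lyz2 and Cd14, at 1.34 CPM or less, lay above both controls in both libraries with no call. Csf1r and Itgam overlapped between groups. Natural killer markers summed to 167 and 91.8 CPM, against 149 and 84.1 CPM, a sum mostly of Gzma and Eomes, which overlapped between groups. Whether the T cells themselves expressed both genes was not tested. Klre1, a lectin-like receptor of natural killer cells, rose from 2.41 and 2.09 CPM to 9.91 and 7.25 CPM (adjusted p = 0.00133), and Ncr1 and Klrb1c lay above both controls in both libraries with no call. Fcgr1, a macrophage marker, was at 0 in both controls and in library 2 labelled SphK1 -/-, with 1 read in library 1. The natural killer markers Klra8 and Klra4 were at 0 in every library. The part of these cells in the results for Nfkbie and Bcl3 was not tested, and in bulk RNA more cells of a type and more RNA per cell cannot be told apart. In library 2 Bcl3 was at 1.27 and Nfkbie at 1.31 times the control mean, and Cd79a was at 37.9 CPM there, against 21.8 and 22.6 CPM in the controls.

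**Figure D2:**
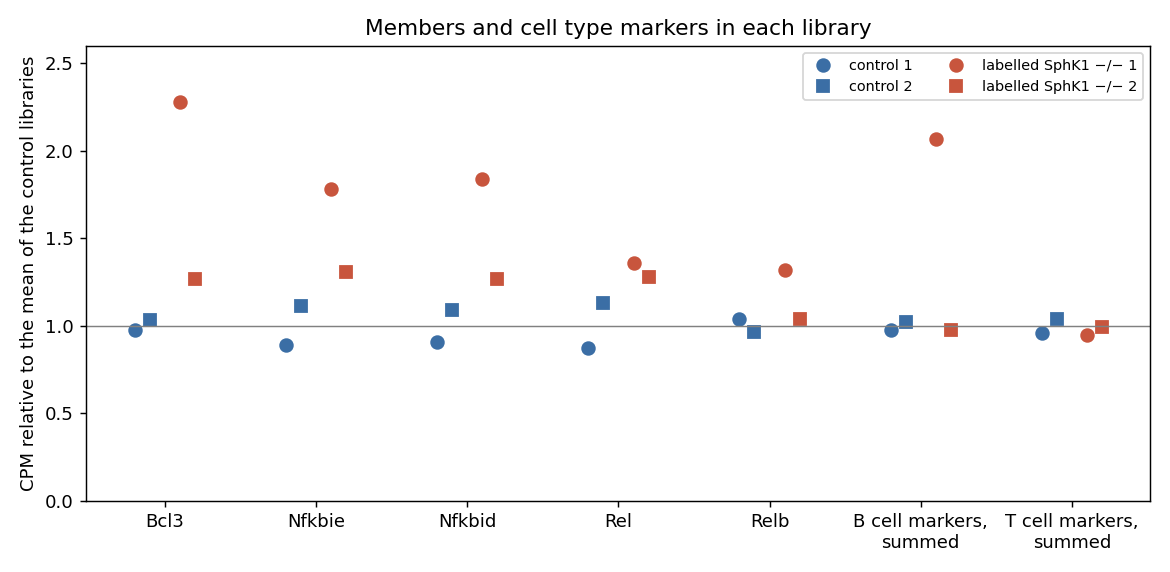
CPM of 5 genes of the NF-kB route and of the summed B cell and T cell markers, relative to the mean of the control libraries (line at 1). Circles are replicate 1 and squares replicate 2 of each group. Library 1 labelled SphK1 -/- is highest for Bcl3, Nfkbie, Nfkbid, Rel, Relb and the B cell markers. The sum of the T cell markers stays between 0.945 and 1.04, which does not show single markers.

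Across the members, library 1 labelled SphK1 -/- held the highest CPM for 6 of 10 genes, beside 26% of all tested genes, and the lowest for none. Groups did not overlap for 7 members, 6 higher and 1 lower in the libraries labelled SphK1 -/-, beside 44.8% of all tested genes (21% higher and 23.8% lower). Among the 6, Relb (24.3 CPM in the nearest library of each group) and Nfkb2 (99.4 against 99.1 CPM) were barely separated. Signs were 7 positive and 3 negative, with 46.2% of all tested genes positive. With library totals alone 3 members were positive and 7 negative. As under TMM, 8 lay above the median of all genes. That agreement follows from construction, since a change of scaling shifts all genes nearly alike. Signs were 6 positive and 4 negative without library 1 labelled SphK1 -/- or without control 2, and 9 positive and 1 negative without library 2 or without control 1.

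**Figure D3:**
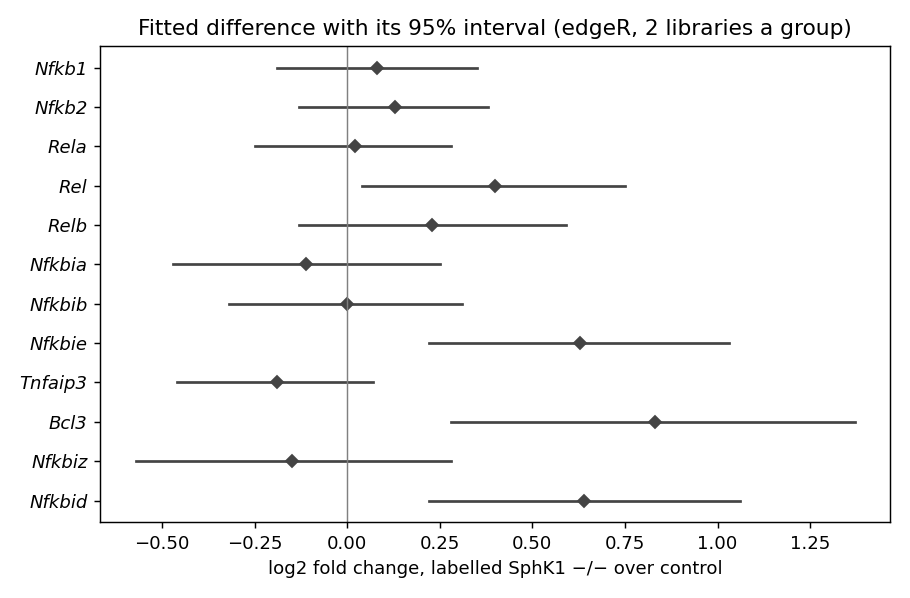
Log2 fold change of each member and of the related IkB genes Nfkbiz and Nfkbid, libraries labelled SphK1 -/- over control, with the unadjusted 95% interval from edgeR (2 libraries a group). The intervals of Rel, Nfkbie, Bcl3 and Nfkbid lie above 0, although none of these genes passed the adjusted threshold.

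Ratios of members within a library do not depend on the scaling between libraries. Nfkbie reads were 0.298 and 0.491 times those of Nfkbia in the control libraries and 0.676 and 0.591 times in the libraries labelled SphK1 -/-. Of the reads of the 3 classical IkB genes, Nfkbie made up 16.4% and 23.9% in the controls and 30.2% and 27% in the others. Its share was thus higher in both libraries labelled SphK1 -/- than in either control. Rel reads were 0.242 and 0.33 times those of Rela in the control libraries and 0.359 and 0.385 times in the others. Bcl3 reads were 0.28 and 0.343 times those of Tnfaip3 in the controls and 0.793 and 0.456 times in libraries 1 and 2 labelled SphK1 -/-. In contrast, Relb reads were 0.245, 0.243, 0.28 and 0.244 times those of Nfkb2, with library 1 labelled SphK1 -/- alone apart. The total of the 3 IkB genes per 100 subunit reads was 19.7 and 17.4 in the controls and 20.3 and 16.8 in the others, so the groups overlapped. Nfkb1 reads were 5.95 and 6.07 times those of Rela in the controls and 5.79 and 6.88 times in the others. Nfkbib reads were 0.516 and 0.567 times those of Nfkbia in the controls and 0.564 and 0.599 times in the others. The groups overlapped for both of these ratios. All ratios restate the levels given above and are no separate evidence. With 2 libraries a group they are given without a test.

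Of 65 other tested genes of the route, on 5 further lists, 0 were higher and 1 was lower, beside 6% and 0.752% of all tested genes. An unadjusted p under 0.05 was found for 8 of them, beside 14.9% of all tested genes. Their median log2 fold change was 0.007, in a range from -0.49 to 1.49. Among the other IkB genes, Nfkbid, which encodes the nuclear protein IkBNS, was at 34.1 and 41.1 CPM in the control libraries and at 69.2 and 47.6 CPM in libraries 1 and 2 labelled SphK1 -/-. It followed Nfkbie and Bcl3 in order of libraries, with a log2 fold change of 0.64 ± 0.18 (SE; adjusted p = 0.099 in edgeR, 0.0202 in DESeq2). Without library 1 it was 0.34 (adjusted p = 0.674), and without library 2 it was 0.88 (adjusted p = 0.00382). Nfkbiz, which encodes IkB-zeta, overlapped between groups, at 37.5 and 50.7 CPM against 45.7 and 34.1 CPM (log2 fold change -0.15, adjusted p = 0.792).

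Of 17 kinases and adaptors of the canonical route, 0 passed the threshold in edgeR, DESeq2 or limma-voom, 0 had an unadjusted p under 0.05, and log2 fold changes ran from -0.16 to 0.14. Malt1, a paracaspase that relays T cell receptor signals to NF-kB, was the highest in CPM at 389 and 325 in the controls and 323 and 337 in the others (log2 fold change -0.11, adjusted p = 0.762). Among 11 genes of the non-canonical route 1 fell, Cd27, a costimulatory receptor of the tumour necrosis factor receptor family. Cd27 went from 138 and 128 CPM in the control libraries to 89.1 and 101 CPM in the libraries labelled SphK1 -/-, a log2 fold change of -0.49 ± 0.12 (SE; adjusted p = 0.0413 in edgeR). This call held with DESeq2 (adjusted p = 0.00695) and limma-voom (0.0484). In edgeR it held with library totals alone (0.00465) and with the replicate number as a block (0.0171). It did not hold in edgeR with RLE size factors (0.0504), with no filter (0.0521) and among single-copy genes (0.241). When a library was left out, the log2 fold change of Cd27 ran from -0.58 to -0.40. In those fits the call held only without control 2. Tnfrsf9, the receptor 4-1BB, was the highest of this list and overlapped between groups, at 1590 and 1330 CPM against 1510 and 1450 CPM (log2 fold change 0.02, adjusted p = 0.965).

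Negative regulators and reported targets gave no call in edgeR. Of 11 tested negative regulators 0 passed the threshold, 1 had an unadjusted p under 0.05 (beside the same 14.9%), and DESeq2 called 1 and limma-voom 0. That gene, named after its value was seen, was Zc3h12a, which encodes the RNase Regnase-1. It was at 18.2 and 18.7 CPM in the control libraries and at 32.2 and 25.2 CPM in the others (log2 fold change 0.64, adjusted p = 0.0544 in edgeR). Tax1bp1, an adaptor of A20 and the highest of the list in CPM, was at 233 and 239 CPM in the controls and at 212 in each of the others (log2 fold change -0.16, adjusted p = 0.583). Of 24 tested targets 0 passed the threshold in edgeR, DESeq2 or limma-voom, and 5 had an unadjusted p under 0.05, beside 14.9% of all tested genes. Their log2 fold changes ran from -0.46 for Ltb, a cytokine of the lymphotoxin family, to 1.49 for Csf2, which encodes the cytokine GM-CSF and stayed at 0.979 to 4.79 CPM. Both ends were named after their values were seen. Il2ra, the alpha chain of the interleukin-2 receptor, was the highest target, at 1450 and 1220 CPM in the controls and 1030 and 1390 CPM in the others (log2 fold change -0.14, adjusted p = 0.787). Without library 2 labelled SphK1 -/-, 4 targets (Cd83, Csf2, Icam1 and Lta) were called higher, as were 804 of all 13098 genes tested in that fit. Without control 2, Tnf was called higher and Ltb lower, and with library totals alone Cd44 and Ltb were called lower.

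**Figure D4:**
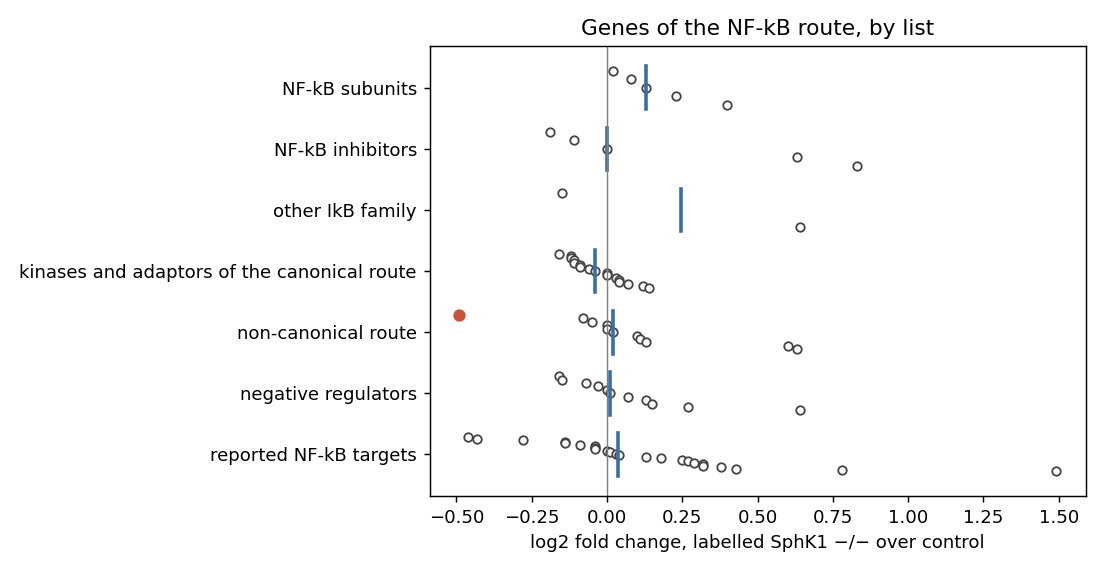
Log2 fold changes, libraries labelled SphK1 -/- over control, of the members and of the other genes of the NF-kB route, by list. Open circles did not pass the adjusted threshold, the filled circle is Cd27, and blue bars are list medians, which lie between -0.04 and 0.25.

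Among all tested genes, the profile most like that of Nfkbie, the member with the smallest unadjusted p, was sought over the 4 libraries. The measure was the Euclidean distance between log2 values of CPM plus 0.1, centred on each gene's mean. The added 0.1 narrows the differences of genes at low CPM, so their places depend on it. The nearest were Lrtm2 (distance 0.0202), Kctd14 (0.0268), Cpq (0.0295), Nfkbid (0.0754) and Prrt1 (0.094). Lrtm2, Kctd14 and Cpq were at most at 1.32 CPM in any library and Prrt1 at 2.58 to 5.42 CPM, while Nfkbid was at 34.1 to 69.2 CPM. Among the members, the closest pairs were Nfkb2 with Rela (distance 0.117) and Rela with Nfkbib (0.138).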

How the data were processed

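The authors deposited raw counts per gene for 4 libraries. Per the submitters' processing notes, the build was GRCm38 and the tools included HTSeq 0.6.1p1, TopHat2 2.0.13, DESeq2 1.14.1 and cutadapt 1.11, with no role stated. The sources used here give neither annotation nor strand setting. Of 23419 entries, 27 with a date for a name and 720 without a name were left out (0.261% to 0.312% of the counts, and 1.13% and 1.17% in the controls alone). Of the 22672 named genes, edgeR 4.0.16 in R 4.3.3 tested the 12758 that passed filterByExpr with a minimum count of 10 (TMM, quasi-likelihood F test, Benjamini-Hochberg over all of them, threshold 0.05). The SE is the absolute log2 fold change over the square root of F. DESeq2 1.42.0 and limma 3.58.1 were alternatives, and all 3 were tested on simulated data. Gene overlap, and 30-base words shared with other genes, came from GENCODE M21. Single-copy genes have at most 5% shared words and 10% overlap, and no member shared more than 2.33% of its words. Named genes were the members, Sphk1, and per further list those called and that with the highest CPM. Otulin (negative regulators) and Adgre1 (macrophage markers) were not matched. The members and lists were chosen with earlier results of these data known. Depth was 44277592 to 53640611 counts. Intervals rest on the spread between 2 libraries a group, with the variation of each gene moderated by that of all tested genes.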

Additional observations from a re-analysis of the deposited data

How the results depend on the processing

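The number of genes called over the table was 2084 with library totals alone and 71 among single-copy genes, where fewer genes were tested, and 732 to 1055 when a library was left out. The number of members called was 2 with DESeq2 (Bcl3 and Nfkbie) and 1 with library totals alone (Tnfaip3), and 0 to 2 when a library was left out. Other genes of the route gave 3 calls with DESeq2, 7 with library totals alone, 0 with RLE size factors, without the filter or among single-copy genes, and 0 to 7 when a library was left out. The replicate numbers do not pair the samples in the labels. The deviations of same-numbered libraries were nearly uncorrelated across genes (r = -0.037, and r = -0.0895 over the 8648 genes above 10 CPM). With the number as a replicate block 1120 genes (942 higher and 178 lower), 2 members (Bcl3 and Nfkbie) and 3 other genes of the route were called. With library totals alone the log2 fold changes of Nfkb1 (-0.16), Nfkb2 (-0.11), Rela (-0.22), Relb (-0.00) and Tnfrsf9 (-0.22) changed sign. That of Nfkbib was 0.01 with DESeq2 and with RLE, and 0.00 with limma-voom and the replicate block. When a library was left out, log2 fold changes crossed 0 for Rela (-0.08 to 0.10), Nfkbia (-0.30 to 0.14), Nfkbib (-0.13 to 0.17), Malt1 (-0.23 to 0.05), Tnfrsf9 (-0.10 to 0.19) and Il2ra (-0.37 to 0.06). Beyond what construction shows, the cause was not tested. A group reduced to 1 library was assumed to vary like the other. The 8 members that are single-copy genes, all but Nfkb2 and Nfkbib, gave 0 calls in edgeR among single-copy genes. Members held at least 1044 reads in every library, and no fit at another depth was run.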
